A study of Mus musculus with 11 samples.

Results

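The glycosyltransferase genes of the ER and the Golgi apparatus were described in AML12, a line of mouse hepatocytes, with different states of *Txndc5*. The genes were chosen by name, from the families *Alg*, *Mgat*, *Galnt*, *Gcnt*, *B3gnt*, *B3gal*, *B4gal*, *Fut*, *St3gal* and *St6gal*, the last with the *St6galnac* genes. Of 96 genes with such a name, 57 had at least 10 counts in at least 3 of the 11 libraries, out of 14036 genes that passed the same filter and 24849 genes in all. The other 39 were not described further. Of these, 17 had 0 counts in every library, and the highest count of any of them was 37.

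Glycosyltransferases move a sugar from an activated donor to a growing glycan. On the ER membrane, enzymes of the *Alg* family build an oligosaccharide on the lipid dolichol, which is then passed as a whole to asparagine residues of new proteins. In the Golgi apparatus, the other families branch and extend these N-glycans, start and build O-glycans on serine and threonine, build glycolipids, and cap the chains with galactose, fucose and sialic acid. In liver, many secreted plasma proteins carry such N-glycans.

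The RNA came from 4 KO, 3 WT and 4 KI libraries of AML12 cells, polyadenylated RNA in each case. The labels give the genotype of the KO libraries as a TXNDC5 knockdown, whereas the paper describes a CRISPR/Cas9 knockout with a puromycin resistance gene put into *Txndc5* and selection of resistant cells. The WT cells carry no such change according to the labels, and the KI cells are labelled as a TXNDC5 knock-in, a line that the paper does not describe. Whether each line is 1 clone, and whether its libraries are separate cultures, is not stated, so the p-values measure only the spread between these libraries. WT 5-6 is a single library. A difference between lines and an effect of *Txndc5* cannot be told apart with 1 line per genotype.

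Total counts per library ran from 29840366 to 38422243. *Txndc5* had 8.50 to 12.9 CPM across KO, 138 to 147 across WT and 158 to 180 across KI libraries, where CPM is the count relative to the library size after scaling by edgeR's TMM method. It was lower in the KO than in the WT cells (log2 fold change -3.82), and the KI libraries were not called higher than the WT libraries (log2 fold change 0.24, Benjamini-Hochberg adjusted p = 0.136, quasi-likelihood test of edgeR). A single unannotated transcript held 11.3% to 17.1% of all WT counts and 4.32% to 9.12% of those of the KO and KI libraries. Of 10 hepatocyte markers, *Ahsg* was at or under 3 counts in all WT and KI libraries. The summed level of these markers was 6334 to 7460 CPM across KO, 3864 to 6024 across WT and 2964 to 3761 across KI libraries. In KO against WT, 6 of the 10 were called higher and 4 lower (*Ttr*, *Trf*, *Serpina1a* and *Fgb*). The higher KO sum rested on *Alb* (3589 to 4767 CPM across KO, 373 to 739 across WT), and the other 9 markers summed to 2521 to 2881 CPM across KO, 3439 to 5651 across WT and 2804 to 3459 across KI libraries, so that without *Alb* the KO libraries were below the WT libraries. The summed level of 6 cholangiocyte markers was 1339 to 1504 CPM across KO, 2975 to 4380 across WT and 2604 to 3083 across KI libraries, with *Epcam* at or under 3 counts throughout. The lower KO sum rested on *Spp1* (211 to 282 CPM across KO, 1945 to 3288 across WT), and the other 5 summed to 1086 to 1221 CPM across KO, 862 to 1091 across WT and 710 to 974 across KI libraries. Of the 4 tested in KO against WT, *Krt19* was called higher and *Krt7*, *Sox9* and *Spp1* lower. Both genes left out of these sums were chosen after their values were seen. The summed markers of fibroblasts did not exceed 1.86 CPM and those of endothelial cells 0.425 CPM in any library. Those of macrophages and leukocytes were at most 2.69 CPM in the KO, 9.56 in the WT and 6.66 in the KI libraries. The part of these differences in the results below was not tested.

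A gene was called higher or lower where this adjusted p, taken over all genes tested, was under 0.05. Between the KO and WT cells, 14 of the 57 glycosyltransferase genes were called higher and 15 lower. Over all 13359 genes tested, 26.7% were called higher and 28.4% lower. The median log2 fold change was 0.10 over the glycosyltransferase genes and -0.03 over all genes. Between the KI and WT cells, 56 genes were tested, of which 13 were called higher and 8 lower, while 21.2% of all genes were called higher and 21.0% lower. Here the medians were 0.09 and -0.02. Between the KO and KI cells, 16 of 56 were called higher and 16 lower, against 27.0% of all genes higher and 27.0% lower, with medians of -0.05 and 0.00. The shares of called glycosyltransferase genes were thus near those of the transcriptome, in which about every other gene was called between the KO and WT cells. Calls with an absolute log2 fold change of at least 1 numbered 8 between the KO and WT cells, 5 between the KI and WT cells and 9 between the KO and KI cells. Over all genes, these were 25.6%, 16.4% and 17.4%, respectively.

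The split of the calls depended on the scaling. When libraries were scaled by their totals and not by TMM, the KO against WT comparison had 27 glycosyltransferase genes higher and 6 lower, and the share of higher calls went from 48.3% to 81.8% among these genes and from 48.5% to 72.8% among all genes. The KI against WT comparison then had 22 higher and 3 lower. Their share of higher calls went from 61.9% to 88.0%, and that of all genes from 50.2% to 76.3%. The median of all genes moved from -0.03 to 0.38 and from -0.02 to 0.31, so that each change below is relative to the median gene. Calls of a lower level that this scaling ended were those of *Alg5*, *Alg9*, *Alg11*, *B4galt2*, *B4galt3*, *Galnt3*, *Galnt10*, *Gcnt2* and *Mgat2* in KO against WT and those of *Alg11*, *B3gnt2*, *B3gnt3*, *Gcnt2* and *St3gal4* in KI against WT. In these bulk libraries, fewer cells of a type and less RNA per cell cannot be told apart.

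**Figure D1:**
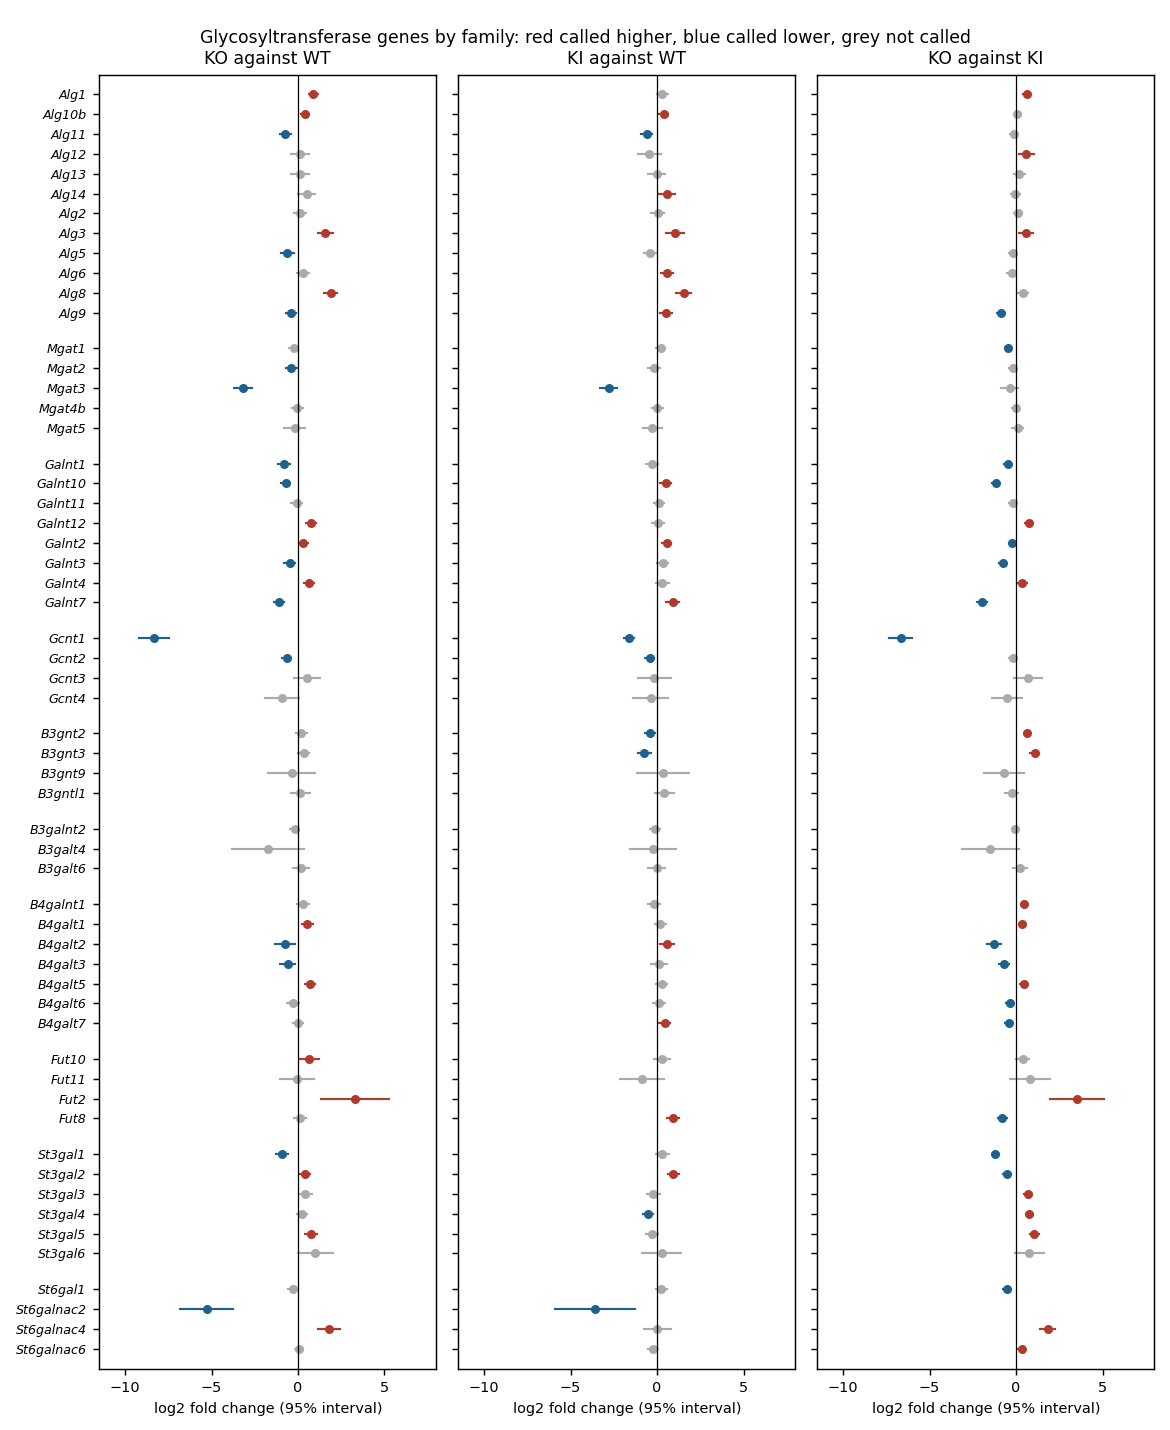
Log2 fold change of each glycosyltransferase gene, in rows grouped by family, for KO against WT, KI against WT and KO against KI. Points are estimates, lines 95% intervals and colours the call. Most genes lie within 1 log2 unit of 0, and *Gcnt1* reaches -8.33 in KO against WT.

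The first steps belong to the *Alg* genes of the ER, and all 12 had enough counts. In the KO against WT comparison 4 were called higher and 3 lower, in KI against WT 6 higher and 1 lower, and in KO against KI 3 higher and 1 lower. Over all genes tested, 26.7% were called higher and 28.4% lower in KO against WT. These shares were 21.2% and 21.0% in KI against WT and 27.0% and 27.0% in KO against KI. The counts of this family and of those below are read against them. *Alg8* and *Alg3* had the largest changes. *Alg3* encodes the mannosyltransferase that adds the first mannose on the luminal side of the ER, and *Alg8* encodes an enzyme of the glucosylation that completes the oligosaccharide. The sequence around the start of each is shown here because both genes were called higher in the KO and in the KI cells. Each is the 300 bases of RefSeq (GRCm38.p6) from 250 before to 50 after the start, and capitals mark CCAAT or CCACG on either strand, the elements of the ER stress response motif. *Alg12*, a later luminal mannosyltransferase, is added because its window held that motif as a whole, CCAAT and CCACG with 9 bases of any kind between them. The windows are chr16:20610712-20611011 on the minus strand for *Alg3*, chr7:97371367-97371666 on the plus strand for *Alg8* and chr15:88819269-88819568 on the minus strand for *Alg12*.
Alg3: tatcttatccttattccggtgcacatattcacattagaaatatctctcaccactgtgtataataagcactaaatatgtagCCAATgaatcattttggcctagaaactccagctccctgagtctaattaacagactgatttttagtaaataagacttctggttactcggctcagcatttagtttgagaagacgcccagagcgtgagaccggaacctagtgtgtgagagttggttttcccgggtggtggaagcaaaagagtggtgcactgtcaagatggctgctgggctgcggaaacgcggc
Alg8: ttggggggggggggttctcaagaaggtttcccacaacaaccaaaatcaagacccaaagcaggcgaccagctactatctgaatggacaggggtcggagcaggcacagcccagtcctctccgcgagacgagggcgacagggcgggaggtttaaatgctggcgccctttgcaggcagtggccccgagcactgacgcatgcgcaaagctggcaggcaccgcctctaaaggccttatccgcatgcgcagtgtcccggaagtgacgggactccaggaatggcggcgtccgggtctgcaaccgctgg
Alg12: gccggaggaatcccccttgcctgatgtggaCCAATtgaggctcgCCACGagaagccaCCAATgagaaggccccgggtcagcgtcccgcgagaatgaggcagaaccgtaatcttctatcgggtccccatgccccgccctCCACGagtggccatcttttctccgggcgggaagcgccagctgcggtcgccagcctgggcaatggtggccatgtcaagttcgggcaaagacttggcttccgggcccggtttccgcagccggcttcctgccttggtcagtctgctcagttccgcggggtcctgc

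The window of *Alg3* held CCAAT once, and that of *Alg8* held neither CCAAT nor CCACG. Promoter sequences were found for 39 of the 57 genes, 53 windows in all. CCAAT was in 39.6% of these and in 37.4% of all 32851 windows of the same length, and CCACG in 37.7% and 32.8%. The whole motif was in 1 window of a glycosyltransferase gene (1.89%), that of *Alg12*, and in 0.119% of all windows. A single window is too few to compare these shares. *Alg12* was called neither in KO against WT (log2 fold change 0.12) nor in KI against WT (-0.46), but was higher in KO against KI (0.60). TGACGTGG was in 0 of the 53 windows and in 0.676% of all. The median number of CpG was 20 per window of these genes and 7 over all windows. A match of letters is no evidence of binding.

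*Alg8* had 19.6, 26.4, 26.2 and 27.7 CPM in KO 5, KO 6, KO 7 and KO 8. The WT libraries 5-6, 7 and 8 had 6.20, 6.25 and 7.47 CPM, and KI 5, KI 6, KI 7 and KI 8 had 21.6, 22.2, 20.1 and 13.3 CPM. All KO and all KI libraries were above all WT libraries, while the KO and KI libraries overlapped. The log2 fold change was 1.89 ± 0.17 (SE, adjusted p = 8.21e-06 in edgeR's test) in the KO cells, a 3.70-fold rise, and 1.54 ± 0.20 in the KI cells (adjusted p = 9.49e-05, edgeR's test). Between KO and KI it was 0.37, with a 95% interval from 0.04 to 0.71, and was not called after adjustment (adjusted p = 0.0572, edgeR's test).

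*Alg3* had 10.2, 15.04, 13.8 and 12.7 CPM in the KO libraries in the same order. It had 4.77, 3.67 and 4.32 CPM in the WT and 9.20, 10.9, 8.81 and 5.75 CPM in the KI libraries. Both sets were above the WT libraries, and KO 5 lay below KI 6. The log2 fold change was 1.59 ± 0.19 in the KO cells (adjusted p = 5.55e-05, edgeR's test) and 1.03 ± 0.24 in the KI cells (adjusted p = 0.00410, edgeR's test). In the annotation of GENCODE vM21, exons of *Eef1akmt4* on the opposite strand overlap those of *Alg3* over 143 bases. *Eef1akmt4* had log2 fold changes of 1.48 and 1.26 in the same comparisons, and without strand in the stated library protocol the reads of both genes cannot be told apart there.

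The genes of the other glucosylation and mannosylation steps moved less. *Alg1*, whose product adds the first mannose on the cytosolic side, was higher in the KO than in the WT cells (0.89 ± 0.12, log2 scale) and than in the KI cells (0.61 ± 0.09). Its exons overlap those of *Eef2kmt* over 472 bases. *Alg11*, which acts on the cytosolic side after *Alg1*, was lower in both the KO (-0.74 ± 0.15) and the KI cells (-0.61 ± 0.16). *Alg5*, whose product makes the dolichol-linked glucose donor, was lower in the KO cells (-0.61 ± 0.17), where KO 5 overlapped WT 8. For *Alg9*, a luminal mannosyltransferase, the KO cells were lower than WT (-0.40 ± 0.14) and the KI cells higher (0.51 ± 0.15), with -0.88 ± 0.11 between KO and KI. The lower value in the KO cells rested on the TMM scaling, since it was 0.02 with library totals. Exons of *1110032A03Rik* on the opposite strand, with up to 688 counts in a library, overlap those of *Alg9* over 500 bases. *Alg10b*, whose product adds the last glucose, was higher in the KO (0.41 ± 0.11) and KI cells (0.37 ± 0.13). *Alg6*, which starts the glucosylation, and *Alg14*, which works with *Alg13* on the second sugar of the chain, were called higher in KI against WT and in no other comparison (0.57 ± 0.16 and 0.57 ± 0.21). The counts of *Alg6* are the sum of 2 entries. The first had 391 to 651 counts across KI and 167 to 200 across WT libraries. The second had 88 to 315 across KI and 117 to 158 across WT libraries, which overlapped. *Alg12* was called between KO and KI only (0.60 ± 0.21), and *Alg2* and *Alg13* in no comparison.

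The *Mgat* genes encode the branching enzymes of N-glycans, and 5 of 11 such names had enough counts, of which 2 were lower in KO against WT, 1 in KI against WT and 1 in KO against KI. *Mgat3*, whose product adds the bisecting N-acetylglucosamine, stood apart. It had 2.38, 2.58, 3.78 and 3.45 CPM in the KO, 18.8, 27.7 and 35.9 CPM in the WT and 4.70, 4.41, 3.79 and 2.89 CPM in the KI libraries. The lowest WT library was above every KO and KI library, and the WT libraries also varied the most among themselves. The log2 fold change was -3.19 ± 0.25 in the KO cells (9.13-fold lower, adjusted p = 2.55e-06, edgeR's test) and -2.80 ± 0.23 in the KI cells (6.96-fold lower, adjusted p = 3.62e-06, edgeR's test). Between KO and KI it was -0.37, with a 95% interval from -0.86 to 0.12, and was not called (adjusted p = 0.191, edgeR's test). Its neighbours on chromosome 15, *Tab1* and *Mief1*, were called in none of the 3 comparisons.

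The other *Mgat* genes moved less than *Mgat3*. *Mgat1*, which starts hybrid and complex N-glycans, was called only between KO and KI (-0.44 ± 0.09). *Mgat2*, which starts the other antenna, was lower in the KO than in the WT cells (-0.39 ± 0.15), but this became 0.04 with library totals. *Mgat4b*, whose product adds a further antenna, had the highest mean CPM, a level not corrected for gene length, of the 14 genes called in no comparison. It had 56.5 to 74.1 CPM across KO, 55.8 to 82.0 across WT and 60.6 to 69.5 across KI libraries. The 95% interval of its log2 fold change was from -0.38 to 0.31 in the KO and from -0.32 to 0.34 in the KI cells. *Mgat5* was called in none either.

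O-glycans of the mucin type are started by the polypeptide N-acetylgalactosaminyltransferases of the *Galnt* family, and 8 of 19 such names had enough counts. Between KO and WT 3 were called higher and 4 lower, between KI and WT 3 higher and 0 lower, and between KO and KI 2 higher and 5 lower. *Galnt7* and *Galnt10*, whose products act mainly on peptides that already carry this sugar, were lower in the KO and higher in the KI cells than in the WT cells. *Galnt7* had 9.22, 8.85, 8.76 and 8.91 CPM in the KO, 17.5, 18.04 and 21.2 in the WT and 38.4, 33.1, 42.4 and 27.9 in the KI libraries. The 3 groups did not overlap. Its log2 fold change was -1.10 ± 0.14 in the KO cells (adjusted p = 7.41e-05, edgeR's test), 0.91 ± 0.17 in the KI cells (adjusted p = 0.00118, edgeR's test) and -1.99 ± 0.13 between KO and KI (adjusted p = 8.78e-09, edgeR's test).

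*Galnt10* had 52.5, 54.3, 54.7 and 51.6 CPM in the KO, 77.3, 81.3 and 100.2 in the WT and 120.1, 116.5, 113.2 and 138 in the KI libraries. These groups did not overlap either. The log2 fold changes were -0.72 ± 0.12, 0.50 ± 0.14 and -1.19 ± 0.09 in the same order. The lower value in the KO cells was not called with library totals, and the higher value in the KI cells was not called without WT 7.

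Among the other *Galnt* genes, *Galnt1* was lower in the KO cells (-0.81 ± 0.15), as was *Galnt3* (-0.48 ± 0.14). *Galnt12* was higher there (0.77 ± 0.13), with 23.2 to 26.8 CPM across KO, 13.2 to 15.9 across WT and 13.6 to 16.9 across KI libraries. *Galnt4* was also higher in the KO cells (0.61 ± 0.13), and its exons overlap those of *Poc1b* on the same strand over 420 bases. *Galnt2* was higher in the KO (0.30 ± 0.12) and in the KI cells (0.56 ± 0.13), the former with an adjusted p of 0.0491 from edgeR's test, a call lost without any one of 6 libraries. Exons of *Gm20388* on the same strand overlap those of *Galnt2* over 3854 bases. *Galnt11*, which can glycosylate NOTCH receptors, was called in no comparison, with 25.8 to 33.4 CPM over all libraries.

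*Gcnt1*, on chromosome 19, had the largest change of all 57 genes. Its product adds the branch that turns core 1 O-glycans into core 2. It had 0.364, 0.385, 0 and 0.506 CPM in the KO libraries. It had 115, 111 and 86.2 CPM in the WT and 32.9, 32.6, 33.7 and 35.5 CPM in the KI libraries. The groups did not overlap, and KO 7 had 0 counts while the other KO libraries had 13, 13 and 22. The log2 fold change was -8.33 ± 0.40 in the KO cells (adjusted p = 1.28e-07, edgeR's test), -1.63 ± 0.14 in the KI cells (3.10-fold lower, adjusted p = 3.75e-06, edgeR's test) and -6.67 ± 0.31 between KO and KI (adjusted p = 1.67e-10, edgeR's test). The neighbouring gene *Prune2* was higher in the KO cells (log2 fold change 1.51) and lower in the KI cells (-1.39), and *Rfk* on the other side was lower in both (-0.45 and -0.52).

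RefSeq gave *Gcnt1* 3 start sites, whose windows held 3, 16 and 2 CpG. The one with 16 is shown, chr19:17356618-17356917 on the minus strand of GRCm38.p6, because it is the CpG-rich start of the gene that was nearly lost in the KO cells. Capitals mark CCAAT or CCACG on either strand as above, and only the complement of the latter occurred.
Gcnt1: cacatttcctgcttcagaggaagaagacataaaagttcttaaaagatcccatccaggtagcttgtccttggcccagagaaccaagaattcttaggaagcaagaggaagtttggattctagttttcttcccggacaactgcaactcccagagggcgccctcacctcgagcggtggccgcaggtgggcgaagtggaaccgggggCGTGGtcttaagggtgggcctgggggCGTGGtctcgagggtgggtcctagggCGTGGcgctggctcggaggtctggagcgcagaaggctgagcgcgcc

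Which start the cells used cannot be read from counts per gene. The other *Gcnt* genes moved less. *Gcnt2*, which makes the I branches, was lower in the KO (-0.66 ± 0.12) and KI cells (-0.44 ± 0.13), and neither was called with library totals. *Gcnt3* and *Gcnt4* were low, at 3.30 CPM or less, and were called in no comparison.

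**Figure D2:**
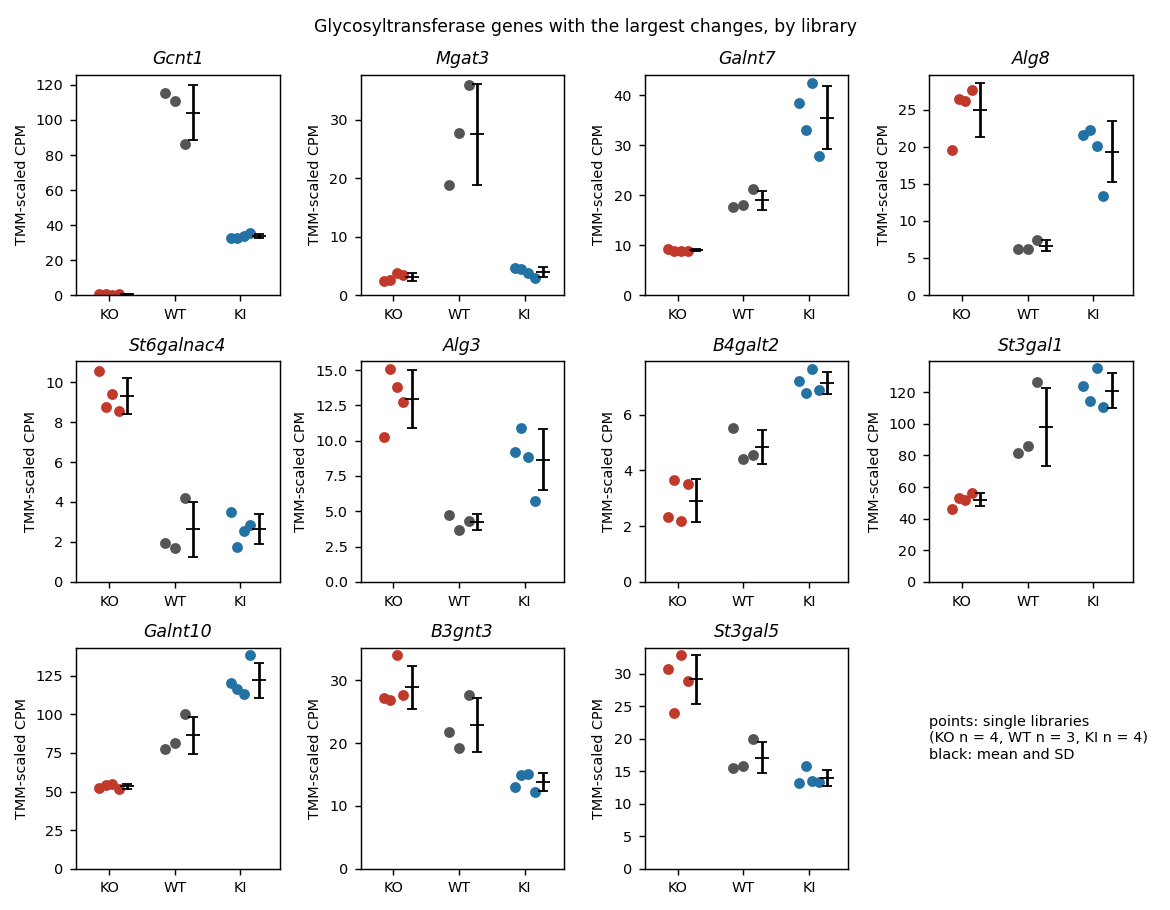
TMM-scaled CPM of 11 glycosyltransferase genes, 1 panel per gene on a linear axis from 0. Each had a called absolute log2 fold change of at least 1 without overlap of the groups. The higher group had a mean of at least 2 CPM, the only condition that *Fut2* and *St6galnac2* missed. Points are single libraries and black bars the mean and SD (KO n = 4, WT n = 3, KI n = 4). *Gcnt1* is near 0 in the KO libraries, and *Galnt7* rises from KO over WT to KI.

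Chains are extended by the *B3gnt*, *B3gal* and *B4gal* genes. *B3gnt3*, whose product extends core 1 O-glycans, had 27.2, 26.8, 34.0 and 27.6 CPM in the KO, 21.8, 19.2 and 27.7 in the WT and 13.0, 14.9, 15.1 and 12.2 in the KI libraries. The KI libraries were below all others, and the KO and WT libraries overlapped. It was lower in the KI than in the WT cells (-0.73 ± 0.16, adjusted p = 0.00370, edgeR's test) and higher in the KO than in the KI cells (1.07 ± 0.12, adjusted p = 2.70e-06, edgeR's test). The value between KO and WT was 0.32 and was not called. *B3gnt2*, which makes poly-N-acetyllactosamine, was likewise lower in the KI cells (-0.42 ± 0.14), with a call that was lost without any one of 5 libraries. Exons of *Gm28048* on the same strand overlap those of *B3gnt2* over 2449 bases. *B3galnt2*, which acts on the glycans of dystroglycan, had 43.0 to 47.3 CPM across KO, 48.2 to 52.7 across WT and 44.4 to 51.2 across KI libraries and was called in no comparison. The 95% interval of its log2 fold change between KO and WT was from -0.44 to 0.06. Exons of *Tbce* on the opposite strand, with up to 1173 counts in a library, overlap those of *B3galnt2* over 325 bases. *B3galt4*, *B3galt6*, *B3gnt9* and *B3gntl1* were called in no comparison either.

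Of the 7 *B4gal* genes with enough counts, 2 were called higher and 2 lower between KO and WT, 2 higher and 0 lower between KI and WT, and 3 higher and 4 lower between KO and KI. *B4galt1*, which galactosylates most N-glycans, was higher in the KO than in the WT cells (0.53 ± 0.14), with 74.2 to 83.1 CPM across KO and 48.1 to 67.4 across WT libraries. *B4galt5*, a lactosylceramide synthase, was also higher there (0.67 ± 0.13). *B4galt2* had 2.33, 3.64, 2.19 and 3.50 CPM in the KO, 5.53, 4.40 and 4.57 in the WT and 7.22, 6.78, 7.63 and 6.87 in the KI libraries. These groups did not overlap, with log2 fold changes of -0.74 ± 0.26 (KO against WT), 0.56 ± 0.19 (KI against WT) and -1.28 ± 0.20 (KO against KI, adjusted p = 6.41e-05, edgeR's test). The comparisons with WT each lost the call in 4 of the fits that left out a library. Its exons overlap those of *Ccdc24* on the same strand over 1417 bases, a gene with at most 32 counts in a library, and those of *Slc6a9* on the opposite strand over 46 bases, a gene with up to 1022 counts. *B4galt3* was lower in the KO than in the WT cells (-0.60 ± 0.20), and its exons overlap those of *Ppox* over 791 bases. *B4galt7*, which acts on the linker of proteoglycans, was higher in the KI cells (0.43 ± 0.14), and its value between KO and WT went from -0.01 to 0.40 with library totals and was then called. *B4galt6* and *B4galnt1*, both of glycolipid synthesis, were called only between KO and KI (-0.37 ± 0.09 and 0.48 ± 0.08).

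Fucose is added by the *Fut* genes, 4 of which had enough counts. *Fut8*, the core fucosyltransferase of N-glycans, had 10.95 to 12.6 CPM across KO, 10.05 to 12.6 across WT and 19.0 to 22.9 across KI libraries. The KI libraries were above all others, with a log2 fold change of 0.92 ± 0.16 against WT (adjusted p = 5.99e-04, edgeR's test) and -0.79 ± 0.11 between KO and KI. *Fut2*, which makes the H antigen of secretions, was low. It had 28 to 46 counts across KO, 0 to 8 across WT and 0 to 7 across KI libraries, and was called higher in the KO than in the WT (3.30 ± 0.90) and KI cells (3.51 ± 0.74). The only WT counts were the 8 of WT 8, without which the fitted value against WT was 8.09 and depends on the prior count. It had too few counts to be tested between KI and WT. *Fut10* was called higher in the KO cells (0.64 ± 0.25, adjusted p = 0.0460, edgeR's test), a call lost without any one of 5 libraries, and *Fut11* in no comparison.

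Sialic acid caps the chains. Of the 6 *St3gal* genes, 2 were higher and 1 lower in KO against WT, 1 and 1 in KI against WT, and 3 and 2 in KO against KI. Of the 4 *St6gal* and *St6galnac* genes, 1 was higher and 1 lower in KO against WT, 0 and 1 in KI against WT, and 2 and 1 of the 3 tested in KO against KI. *St6galnac4*, whose product adds sialic acid to sialylated core 1 O-glycans, had 10.6, 8.77, 9.39 and 8.56 CPM in the KO, 1.96, 1.69 and 4.21 in the WT and 3.50, 1.74, 2.54 and 2.83 in the KI libraries. The KO libraries were above all others, and the WT and KI libraries overlapped. The log2 fold change was 1.80 ± 0.30 against WT (3.48-fold higher, adjusted p = 4.29e-04, edgeR's test) and 1.82 ± 0.20 against KI (adjusted p = 2.22e-06, edgeR's test), and 0.01 in KI against WT, with a 95% interval from -0.78 to 0.80. Next to it on chromosome 2, *Dpm2* was higher in the KO cells (log2 fold change 0.40) and *St6galnac6*, another sialyltransferase, was not called against WT (0.07) but was higher than in the KI cells (0.33 ± 0.10). *St6galnac2* went the other way at a low level. It had from 0 to 3 counts in the KO and from 29 to 68 in the WT libraries (log2 fold change -5.29 ± 0.70), and in the KI libraries 20 counts in KI 5 and 0 in the other 3. The KI against WT value (-3.58 ± 1.06) was called by edgeR's test but not by DESeq2. Without KI 5 the fitted value was -8.72, which depends on the prior count because the remaining KI libraries had no counts.

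*St3gal1*, which puts sialic acid on core 1 O-glycans, had 46.3, 53.1, 51.9 and 56.3 CPM in the KO, 81.6, 85.8 and 126 in the WT and 124, 115, 135 and 111 in the KI libraries. The KO libraries were below all others, and WT 8 lay among the KI libraries. The log2 fold change was -0.94 ± 0.16 against WT (adjusted p = 5.21e-04, edgeR's test) and -1.22 ± 0.10 against KI (adjusted p = 5.47e-08, edgeR's test). *St3gal5*, the synthase of the ganglioside GM3, had 30.7, 24.0, 32.9 and 28.9 CPM in the KO, 15.5, 15.9 and 19.9 in the WT and 13.1, 15.8, 13.6 and 13.4 in the KI libraries. Its KO libraries were above all others, with 0.75 ± 0.16 against WT and 1.06 ± 0.12 against KI.

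*St3gal2*, which acts on O-glycans and gangliosides, was higher in the KI cells (0.94 ± 0.15) and less so in the KO cells (0.40 ± 0.14), where KO 5 overlapped WT 8. *St3gal4* was lower in the KI cells (-0.52 ± 0.14) and *St3gal3* was called only between KO and KI (0.67 ± 0.11). *St6gal1*, the main sialyltransferase of N-glycans in liver, had 134 to 150 CPM across KO, 153 to 204 across WT and 172 to 234 across KI libraries. It was called between KO and KI (-0.53 ± 0.10), while the KO against WT value, -0.31, had an adjusted p of 0.0537 from edgeR's test. With library totals the KO against WT value was 0.09 and was not called. *St3gal6* was low and called in no comparison, and its exons overlap those of *Dcbld2* over 1603 bases.

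The 57 genes lay on 20 chromosomes, whose median log2 fold changes over all their tested genes differed. In KO against WT these medians ran from -0.36 to 0.52 and in KI against WT from -0.39 to 0.27. *Alg8* and *Fut2* were on chromosome 7, with a median of 0.52 over 943 genes in KO against WT, and *Alg3* on chromosome 16, with 0.49 over 379 genes. After subtraction of these medians *Alg8* was at 1.37 and *Alg3* at 1.10 on the log2 scale. Between KO and KI the medians of these chromosomes were 0.44 and 0.51, near the values of *Alg8* (0.37) and *Alg3* (0.58) themselves. *Gcnt1* on chromosome 19 (median -0.34) and *Mgat3* on chromosome 15 (median 0.06) lay far from theirs. Other named genes also had called neighbours in KO against WT. Lower like the gene were *Mfap3* (-0.35) and *Sap30l* (-0.62) beside *Galnt10*, *Ndrg1* (-1.22) beside *St3gal1* and *Atp6v0b* (-0.54) beside *B4galt2*. Higher like the gene were *Polr1a* (1.56) and *Atoh8* (0.77) beside *St3gal5* and *Abcf3* (0.67) beside *Alg3*. *Hmgb2* (0.88) beside *Galnt7* and *Ndufc2* (-0.66) beside *Alg8* went the other way. The part of the chromosome or of neighbours in each change was not tested.

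**Figure D3:**
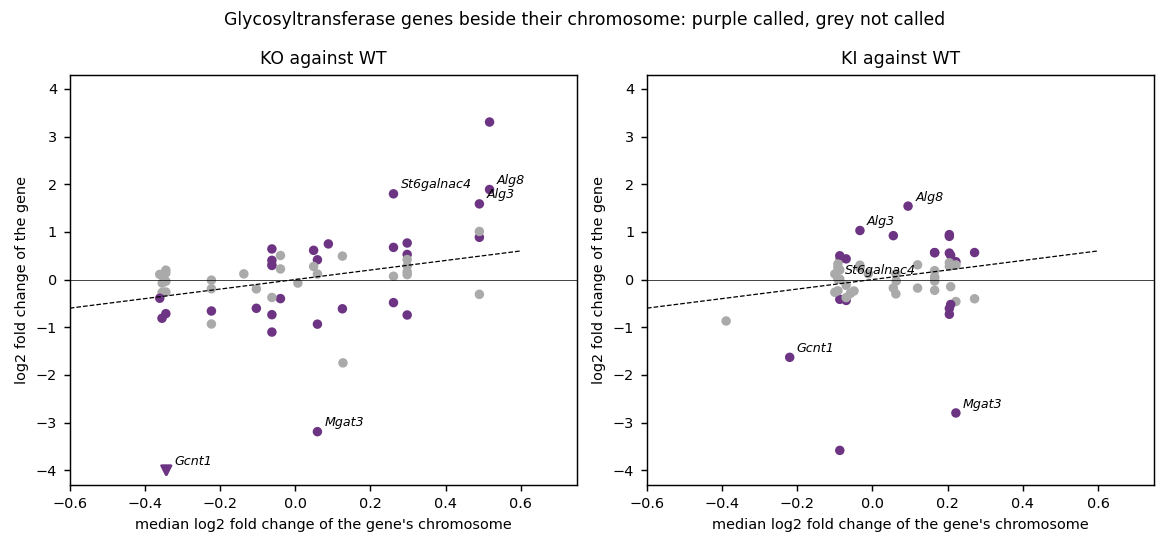
Log2 fold change of each glycosyltransferase gene (vertical axis) against the median over all tested genes of its chromosome (horizontal axis), for KO against WT and KI against WT, with the dashed line where both are equal. Triangles mark values below -4, drawn at -4. *Alg3* and *Alg8* are on chromosomes with medians of 0.49 and 0.52 in KO against WT and lie above the line in both panels.

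The enzymes depend on a supply of donors and on the steps around them. For the lists of such genes, the counts are read against the shares of all genes given above. Of 12 oligosaccharyltransferase subunits, which pass the finished oligosaccharide to the protein, 3 were called higher and 3 lower in KO against WT, 1 and 2 in KI against WT, and 4 and 3 in KO against KI. The medians were -0.09, -0.17 and 0.01. *Ddost* was higher in the KO (1.03 ± 0.15) and KI cells (0.75 ± 0.17). *Tusc3*, an oxidoreductase subunit, was lower in the KO cells (-2.003 ± 0.19), and *Magt1*, its alternative in the complex, was lower in the KI cells (-0.52 ± 0.15). Before scaling, *Magt1* had 13605 to 16825 counts across KO, 8536 to 9425 across WT and 8737 to 9134 across KI libraries. *Tmem258*, another subunit, had 1861 to 2463 counts across KO, 2923 to 4410 across WT and 2828 to 3295 across KI libraries.

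Of 11 genes for dolichol and lipid-linked sugars, 5 were called higher and 3 lower in KO against WT (median 0.13), 1 and 3 in KI against WT (median -0.01), and 6 and 1 in KO against KI (median 0.26). *Dolpp1*, which recycles dolichol, was higher in the KO cells (1.03 ± 0.21). *Dpagt1*, which starts the oligosaccharide, was higher in the KO (0.51 ± 0.17) and the KI cells (0.61 ± 0.18), whereas *Mpdu1*, needed for the use of the lipid-linked sugars, was lower in the KO cells (-0.83 ± 0.14). Of 11 tested genes that trim N-glycans or check their folding, 5 were higher and 2 lower in KO against WT (median 0.23), 2 and 1 in KI against WT (median 0.31), and 4 and 1 in KO against KI (median 0.08). *Man2a2* and *Man2a1*, the Golgi mannosidases that act after *Mgat1*, were higher in the KO cells (0.97 ± 0.17 and 0.86 ± 0.20).

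Of 20 tested genes of sugar nucleotide synthesis, 8 were higher and 4 lower in KO against WT (median 0.05), 5 and 7 in KI against WT (median -0.18), and 11 and 3 in KO against KI (median 0.41). *Gne*, which starts the synthesis of sialic acid, was higher in the KO cells (1.35 ± 0.20), as was *Pmm2*, which makes mannose-1-phosphate (1.27 ± 0.16). *Galk1*, the galactokinase, was lower in the KO (-1.81 ± 0.14) and KI cells (-1.05 ± 0.15), and so was *Ugp2*, which makes UDP-glucose (-1.50 ± 0.20 and -1.83 ± 0.20). Of 11 sugar nucleotide transporters, 6 were higher and 2 lower in KO against WT (median 0.53), 1 and 3 in KI against WT (median 0.00), and 7 and 2 in KO against KI (median 0.32). *Slc35c1*, the GDP-fucose transporter, was higher in the KO than in the WT cells (0.76 ± 0.21) and than in the KI cells (1.00 ± 0.12).

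Of 34 further ER and Golgi glycosyltransferases outside the named families, 22 were tested. In KO against WT 6 were higher and 9 lower (median -0.11), in KI against WT 9 and 5 (median 0.35), and in KO against KI 3 and 8 (median -0.11). *C1galt1*, the synthase of core 1, and its chaperone *C1galt1c1* were lower in the KO (-0.76 ± 0.18 and -1.77 ± 0.21) and in the KI cells (-0.80 ± 0.20 and -0.69 ± 0.23). *Poglut1*, which puts glucose on NOTCH repeats, had 30 to 70 counts across KO, 304 to 393 across WT and 967 to 1157 across KI libraries. The groups did not overlap, with log2 fold changes of -3.46 ± 0.31 and 0.98 ± 0.18 against WT. *St8sia4*, a polysialyltransferase, had 0 counts in the 4 KO libraries, 680 to 934 across WT and 2064 to 3046 across KI libraries, and KO lay at least 881-fold lower than KI, with 3 counts per library as the floor. It was higher in the KI than in the WT cells (1.19 ± 0.20).

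**Figure D4:**
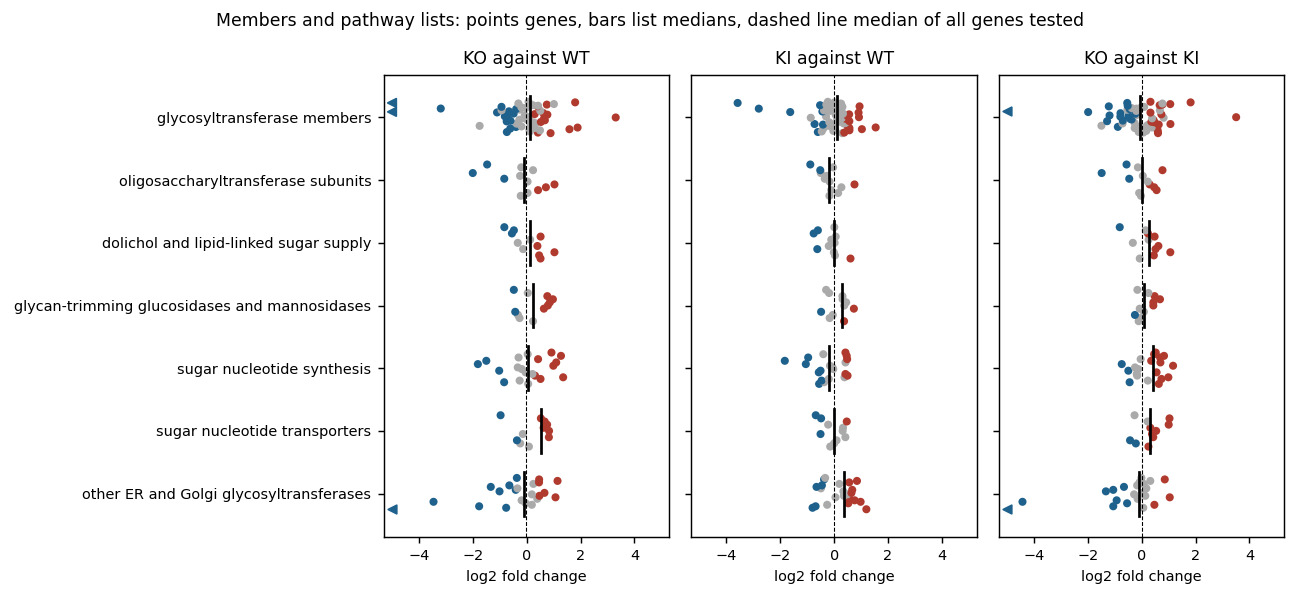
Log2 fold changes of the glycosyltransferase genes and of 6 lists around them, for the 3 comparisons, 1 point per tested gene (red called higher, blue called lower, grey not called). Bars are medians, the dashed line is the median of all genes tested, and triangles mark values below -5, drawn at -5. The sugar nucleotide transporters have a median of 0.53 in KO against WT and 0.00 in KI against WT.

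Across the 3 comparisons, 43 of the 57 genes were called at least once and 14 in none. The share of all genes called at least once, or in the patterns below, was not computed. In the single comparisons 55.1% (KO against WT), 42.3% (KI against WT) and 54.0% (KO against KI) of all genes were called. Because the KO against WT and KI against WT comparisons share the WT libraries, their values are given side by side only. *Alg3*, *Alg8*, *Alg10b*, *Galnt2* and *St3gal2* were called higher in both, and *Gcnt1*, *Mgat3*, *Alg11*, *Gcnt2* and *St6galnac2* lower in both. *Alg9*, *B4galt2*, *Galnt10* and *Galnt7* were called lower in the KO and higher in the KI cells. Their calls in KO against KI, all lower, follow from that choice and are no further evidence. The comparison of KI against WT was the one that hung most on single libraries. Of its 21 calls, 14 were kept in every fit that left out 1 library, compared with 21 of 29 in KO against WT and 29 of 32 in KO against KI. The calls lost without at least 1 library were those of *Alg9*, *B4galt2*, *B4galt3*, *Fut10*, *Galnt2*, *Galnt3*, *Mgat2* and *St3gal2* in KO against WT, of *Alg9*, *Alg10b*, *Alg14*, *B3gnt2*, *B4galt2*, *B4galt7* and *Galnt10* in KI against WT, and of *Alg12*, *Galnt2* and *Galnt4* in KO against KI. A single library decided the call of *Galnt3* (WT 5-6), of *Galnt10* in KI against WT (WT 7) and of *Galnt2* in KO against KI (KO 6), and each of the others was lost in the absence of any one of 3 or more libraries. Leaving out 1 library moved 4 of these values by more than 1.5 times, those of *Alg14* in KI against WT (from 0.57 to 0.37 without WT 8 and 0.86 without WT 5-6), *B4galt3* in KO against WT (from -0.60 to -0.33 without WT 8), *Mgat2* in KO against WT (from -0.39 to -0.24 without WT 5-6) and *Galnt4* in KO against KI (from 0.33 to 0.20 without KI 8). Without WT 7, and likewise without KI 6, the higher calls in KI against WT fell to 8.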

How the data were processed

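Polyadenylated RNA of AML12 cells was sequenced in 11 libraries, of which 4 were KO, 3 WT and 4 KI. The authors deposited read counts per gene without normalization. Per the labels, HISAT2, TopHat2, Bowtie2 and StringTie were used. Their roles, the genome build and the counting tool are not given in the sources used here. Of 26472 lines, 10 broken ones were left out. Counts of entries with the same name were summed. FPKM and the authors' own comparisons (adjusted p, log2 fold change, call), with damaged decimals, were not used.

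Total counts ran from 30380360 to 38422243 (KO), 29840366 to 30364098 (WT) and 32360709 to 35335070 (KI). The floor of 3 counts covers counting error only.

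In R 4.3.3, genes kept by edgeR (4.0.16) were scaled by TMM and tested with its quasi-likelihood test between the libraries of 2 groups. The Benjamini-Hochberg adjustment covered all genes tested, and an adjusted p under 0.05 was a call. Values after ± are standard errors. Printed CPM were scaled over all 11 libraries. The test was checked on simulated counts. Far fewer genes changed there than were called here, so that check does not cover the scaling of these data. Alternatives were library totals, DESeq2 (1.42.0), other filters, 1 fit over 11 libraries, the 2 most abundant unannotated entries left out, the largest entry in place of the sum, a replicate block and each library left out.

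The genes, the lists and the rule for named genes were chosen with earlier results of these data known. Library values in full were for genes called with an absolute log2 fold change of at least 1, a mean of at least 2 CPM in either group and no overlap, and ranges for the 3 uncalled genes with the highest CPM. Other genes were named to account for every member, and list genes after their values were seen. Chromosomes, neighbours and promoters came from RefSeq by name, exon overlaps from GENCODE vM21.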

Additional observations from a re-analysis of the deposited data

Results flagged for a closer look

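In groups of 4 libraries, 1 library was set apart from the other 3 in 4 of 114 groups of glycosyltransferase values, by Dixon's ratio of the gap to the range, where chance gives 5.7. For *B3gnt3* KO 7 had 34.0 CPM against 26.8 to 27.6 in the other KO libraries (ratio 0.891). For *B3gnt9* KO 6 had 0.622 CPM against 0.390 to 0.421 (ratio 0.868). For *St3gal5* KI 6 had 15.8 CPM against 13.1 to 13.6 in the other KI libraries (ratio 0.835). For *St6galnac2* KI 5 had 0.559 CPM and the other KI libraries 0 (ratio 1.0).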

How the results depend on the processing

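With library totals in place of TMM, 27 glycosyltransferase genes were higher and 6 lower in KO against WT, and 22 higher and 3 lower in KI against WT. The genes of the 6 pathway lists had 10 lower calls in KO against WT (23 with TMM), and 33 higher and 5 lower in KI against WT (19 and 21 with TMM). In KO against WT, *Alg9* went from -0.40 to 0.018, *Mgat2* from -0.39 to 0.041 and *B4galt7* from -0.01 to 0.40. By its construction this scaling takes in the most abundant transcripts, and their part in these shifts was not tested.

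Replicate numbers were not used as pairs. Each library's deviations from its group mean were compared between libraries with the same number, and these correlations ran from -0.38 to 0.50. With the replicate block, KI against WT had 4 calls in place of 21, 1 higher and 3 lower, from the 4 libraries whose numbers both groups share, and KO against WT had 12 higher and 11 lower, KO against KI 15 and 16. The *Fut2* call in KO against WT was among those lost with the block. 

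In the fits that each left out 1 library, higher calls ran from 11 to 17 and lower calls from 12 to 14 in KO against WT. They ran from 8 to 16 and from 7 to 11 in KI against WT, with 8 without WT 7 and without KI 6, and all calls together from 15 to 27. In KO against KI they ran from 14 to 17 and from 16 to 20. DESeq2, the other filters, 1 fit over 11 libraries, the largest entry and leaving out the abundant entries kept these counts within 1.5 times. In all alternatives tried, 16 of 29, 3 of 21 and 29 of 32 calls were kept in the order of the comparisons. Low counts limit *Fut2*, *St6galnac2*, *Fut11*, *B3gnt9* and *B3galt4*.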
